A study of Mus musculus with 17 samples.

Results

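The microRNAs miR-199 and miR-214 were followed in small RNA libraries made from the exosomes in mouse feces, that is, from the small membrane vesicles that cells release. They were chosen by name, as the table's rows for mmu-miR-199a-3p, mmu-miR-199a-5p, mmu-miR-199b-3p, mmu-miR-199b-5p, mmu-miR-214-3p and mmu-miR-214-5p, where mmu stands for mouse. Of these 6 names, 4 were held by 3 of the 1487 smRNA rows. miR-199a-3p and miR-199b-3p share 1 row, and miR-199a-5p and miR-214-3p have a row each. miR-199b-5p and miR-214-5p were not analysed here.

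All 17 libraries came from IL-10 KO mice on the C57BL/6J background, which lack the anti-inflammatory cytokine interleukin 10 and serve as a model of inflammatory bowel disease. Mice were obtained at 4 weeks of age and housed singly, and the labels give no age for either time point and name no further treatment. The start-point group held 10 libraries, from 7 males and 3 females. The end-point group held 7, of which 5 were from males and 2 from females. Mouse 1 is named on both end-point library 1 and end-point library 2, so that by the labels 6 mice were sampled at the end-point, each of which also had a start-point library. Counts per library ran from 32320 to 178075. Totals under 75000 occurred in end-point libraries 1, 3 and 7 and in 0 start-point libraries, so in these 3 shallow depth cannot be told apart from the later time. Wild-type libraries were not analysed here. The exosomes come from a mixture of cells, so fewer vesicles of a cell type and less of the RNA per vesicle cannot be told apart.

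A microRNA is cut from a hairpin precursor, and either arm of the hairpin (5p or 3p) can be loaded into a silencing complex, which pairs with messenger RNAs mainly through the seed, bases 2 to 8. miR-199a and miR-214 are known from mesenchymal cells such as fibroblasts, where 1 of the miR-199a genes and the miR-214 gene are transcribed together within the long noncoding RNA Dnm3os. They have been studied in fibrosis: miR-199a-5p is known to repress caveolin-1 and miR-199a-3p to repress Met and Mtor. No cell of origin was measured here, so the mesenchymal source is background and not a result.

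The mature sequences show why the table cannot separate some of these RNAs. They are printed 5′ to 3′ with the seed in capitals, from RefSeq on GRCm38.p6, which held 5 of the 6 names.
miR-199a-3p: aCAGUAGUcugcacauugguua
miR-199b-3p: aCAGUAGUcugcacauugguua
miR-199a-5p: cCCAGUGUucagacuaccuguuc
miR-214-3p: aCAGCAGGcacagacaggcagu
miR-214-5p: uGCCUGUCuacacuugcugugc
miR-761: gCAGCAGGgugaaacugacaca
miR-199a-3p and miR-199b-3p were identical at 22 of 22 positions, so their shared row sums the 3p arms of 3 genes. miR-214-3p and miR-199a-3p matched at 5 of 7 seed positions and have different seeds. Among 1679 mature names searched, miR-761 was the 1 other miRNA with the seed of miR-214-3p. No other of these names carried the seed of miR-199a-5p, but miR-199b-5p had no entry and so was not searched. The Mir199b hairpin printed below holds the same 7 bases in its 5p arm, in lower case.

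The hairpins are shown with the listed mature arms in capitals, since both arms of a hairpin are compared further on.
Mir199a-2: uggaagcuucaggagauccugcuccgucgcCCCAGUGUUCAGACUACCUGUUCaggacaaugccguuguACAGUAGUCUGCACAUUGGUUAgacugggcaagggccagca
Mir199a-1: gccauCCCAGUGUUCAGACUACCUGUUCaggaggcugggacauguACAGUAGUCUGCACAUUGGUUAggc
Mir199b: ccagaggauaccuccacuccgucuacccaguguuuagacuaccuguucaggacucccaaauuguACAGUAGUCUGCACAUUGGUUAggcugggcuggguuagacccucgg
Mir214: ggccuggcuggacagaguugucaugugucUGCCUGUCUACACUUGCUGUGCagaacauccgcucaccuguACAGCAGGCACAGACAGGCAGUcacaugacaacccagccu
Mir199a-2 (chr1:162217814-162217923, plus strand) and Mir214 (chr1:162223368-162223477, plus strand) overlap annotated exons of Dnm3os, and both lie opposite an intron of Dnm3. The end of the first hairpin and the start of the second are 5445 bases apart. Mir199a-1 (chr9:21496495-21496564, minus strand) lies opposite an intron of Dnm2, and Mir199b (chr2:32318460-32318569, plus strand) opposite an intron of Dnm1. The 3p row therefore draws on chromosomes 1, 2 and 9, the miR-199a-5p row on chromosomes 1 and 9, and miR-214-3p on chromosome 1 alone.

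All 3 rows were scarce. Counts were divided by the library total and scaled to 1000000 (CPM), and on this scale the means over 17 libraries were 127.2 for the miR-199 3p row, 100.2 for miR-199a-5p and 131 for miR-214-3p. These means ranked 1090th, 1198th and 1074th among 1487 smRNAs, and the median of the 1270 smRNAs tested was 275 CPM. The rows together gave 252, 217 and 224 counts over all libraries. A single count was worth 5.62 CPM in the deepest library and 30.9 CPM in the shallowest, so counting error is a large part of each value. At the start-point, the variance of CPM was 2.27 times that of counting alone for the miR-199 3p row and 1.55 times for miR-199a-5p, against 10.7 times for miR-214-3p and a median of 15.2 over the tested smRNAs. At the end-point these ratios were 6.16, 33.3 and 12.5, against a median of 11.7. The miR-199a-5p row thus went from the least spread of the 3 rows beyond counting error to the most.

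**Figure D1:**
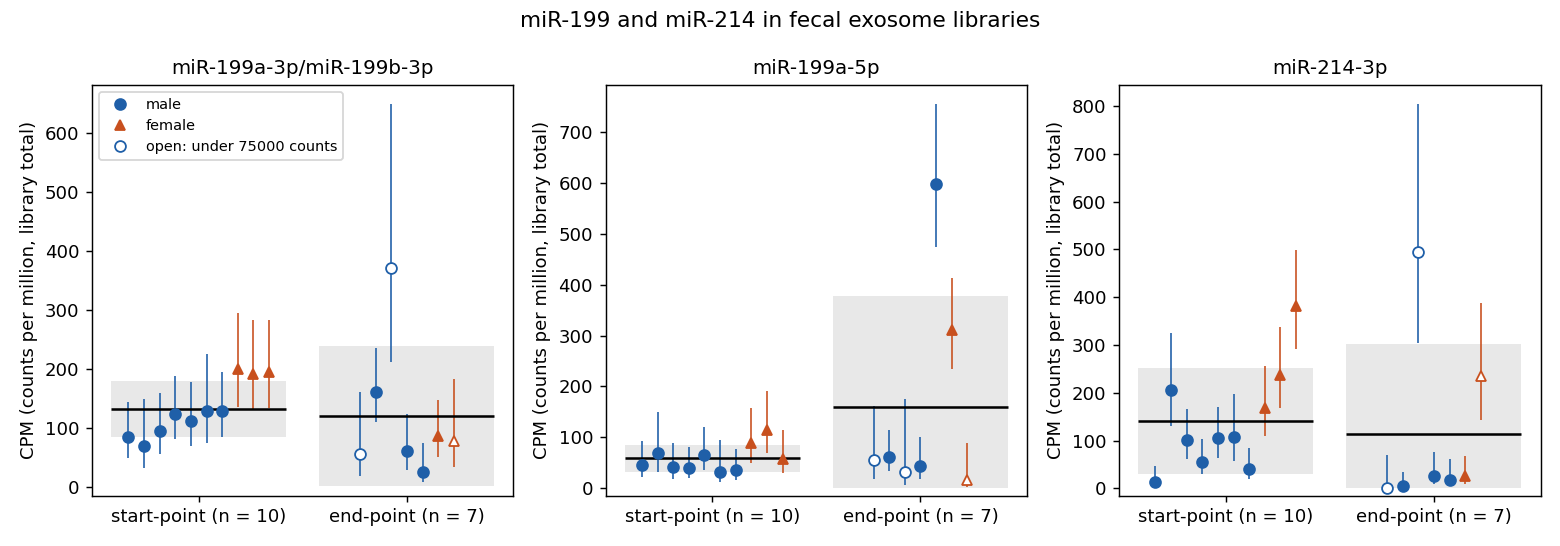
CPM of the miR-199 3p row, miR-199a-5p and miR-214-3p (vertical axes) in each start-point and end-point library; bars on points are 95% Wilson intervals of counting error, the line is the group mean, the band 1 SD cut off at 0, and open symbols mark libraries under 75000 counts. End-point libraries 5 and 6 stand at 599 and 311 CPM for miR-199a-5p, and end-point libraries 3 and 7 at 495 and 235 CPM for miR-214-3p.

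The miR-199 3p row, the arm known to repress Met and Mtor, was at 68.6 to 200.1 CPM in start-point libraries, with a median of 125.9. End-point libraries 1 to 7 held 54.8, 161, 371, 59.9, 25.3, 86.1 and 78.3 CPM. Library 3 lay above the start-point range, libraries 1, 4 and 5 below it and the other 3 inside it, so the time points overlapped. The group means were 132.6 ± 47.7 CPM (SD, n = 10) and 119 ± 119 CPM (SD, n = 7). The value of 371 CPM rests on 12 counts, with a 95% Wilson interval of 212 to 649 CPM. These intervals cover counting error only.

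With TMM factors, which rescale libraries so that most smRNAs line up, the log2 fold change of the miR-199 3p row from start-point to end-point was 0.38 ± 0.44 (SE), while with library totals only it was -0.17. It was not called in either fit, with edgeR adjusted p of 0.524 and 0.81. The 95% interval with TMM factors ran from -0.52 to 1.29, so changes of more than 1 on the log2 scale upwards remain possible. The scaling also moved the median log2 fold change of all tested smRNAs, from -0.18 with TMM factors to -0.65 with library totals. Relative to these medians the row stood 0.57 and 0.48 higher. Without the 3 libraries under 75000 counts it was 0.71 (edgeR adjusted p 0.214), and without end-point library 5 as well 1.09 (edgeR adjusted p 0.0505). With end-point library 2 left out, the log2 fold change was -0.16, again with no call (edgeR adjusted p 0.798).

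The miR-199a-5p row, the arm known to repress caveolin-1, was low and even at the start-point, at 32.2 to 115 CPM with a median of 51.4. End-point libraries 1 to 7 held 54.8, 61.8, 30.9, 42.8, 599, 311 and 15.7 CPM. Libraries 5 and 6, a male and a female, lay above all start-point libraries, and the other 5 lay within or below the start-point range. The 95% Wilson intervals of libraries 5 and 6 were 475 to 756 CPM and 234 to 414 CPM, from 71 and 47 counts. The group means were 58.7 ± 26.6 CPM (SD, n = 10) and 159 ± 219 CPM (SD, n = 7).

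The low-count filter of the main test left miR-199a-5p out, and 6 of 17 libraries held 10 or more of its counts. Fitted without a filter, its log2 fold change was 2.15 ± 0.56 (SE), with a 95% interval of 0.99 to 3.31 and an edgeR adjusted p of 0.0054. Without a filter 33.2% of all 1487 smRNAs were called and 16.9% were called higher, so a call of this kind was common. The rise rested on few libraries: without end-point library 5 the log2 fold change was 1.29 and the edgeR adjusted p 0.0669. With mouse identity as a block, which compares libraries within mice, it was 1.04 with an edgeR adjusted p of 0.463, where 5.25% of smRNAs were called. With limma-voom it was 1.11 with an adjusted p of 0.19.

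Among the 14 libraries of at least 75000 counts, the rise of miR-199a-5p was larger. Without a filter it was 3.05 on the log2 scale (edgeR adjusted p 5.96e-06), where 284 of 1487 smRNAs were called higher. The filter kept the row here and gave 3.02 (edgeR adjusted p 6.9e-06), where 18.4% of smRNAs were called higher. In CPM with TMM factors, the 4 deeper end-point libraries held 148, 77.1, 825 and 418, all above the start-point libraries at 30.1 to 69.0. Of all smRNAs, 4.37% showed such a separation upwards. In CPM without these factors, only libraries 5 and 6 stood above the start-point range. The TMM factors of end-point libraries 2 and 4 were the lowest of all, at 0.42 and 0.56, and scaling by library totals removes their part. It gave a log2 fold change of 2.096 in the 14 libraries (edgeR adjusted p 0.0022). With TMM factors again, leaving out end-point library 5 as well lowered the 3.05 to 2.33 (edgeR adjusted p 0.000177). Mouse as a block with TMM factors gave 2.33 (edgeR adjusted p 0.0687). That fit used only the mice of the 4 deeper end-point libraries.

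miR-214-3p, the arm cut from the Mir214 hairpin on chromosome 1, varied widely at both time points. Start-point libraries ran from 12.9 to 382 CPM with a median of 106. End-point libraries 1 to 7 held 0, 6.18, 495, 25.7, 16.9, 26.5 and 235 CPM. At the end-point 5 of 7 libraries lay under 30 CPM, as did start-point library 1, while libraries 3 and 7 lay in the upper part of the start-point range or above it. The count of 0 in end-point library 1 allows up to 54.8 CPM (3 counts of its total). The 16 counts behind library 3 gave a 95% Wilson interval of 305 to 804 CPM. Group means were 141.7 ± 111 CPM (SD, n = 10) and 115 ± 187 CPM (SD, n = 7).

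Over all libraries miR-214-3p was not called, with a log2 fold change of -0.16 ± 0.66 (SE), a 95% interval of -1.51 to 1.19 and an edgeR adjusted p of 0.872. Of the 2 rows the filter kept, 0 were therefore called, where 33.7% of 1270 smRNAs were. With so wide an interval the fit does not show that the level was the same at both time points. The sign was not settled either: the log2 fold change lay between -0.90 and 0.06 as single libraries were left out. The 14 libraries of at least 75000 counts leave out end-point libraries 1, 3 and 7, at 0, 495 and 235 CPM of this row. Libraries 3 and 7 were the highest at the end-point. In the 14 libraries the row was called lower, at -1.62 ± 0.53 (SE) on the log2 scale with an edgeR adjusted p of 0.0222. In that fit 33.6% of the 1388 smRNAs tested were called, and 15.2% of the 1388 were called lower. The 4 deeper end-point libraries held only 1 to 4 counts each, against 2 to 53 at the start-point. On CPM with TMM factors they ran from 14.8 to 46.2, against 16.2 to 199.5 at the start-point, so the groups overlapped, while 5.99% of all smRNAs lay wholly below. The call was lost when end-point library 5 was left out as well (-1.51, edgeR adjusted p 0.073), in limma-voom (-1.24, adjusted p 0.267) and with mouse as a block and no filter (-0.97, edgeR adjusted p 0.335). The call was kept, with a larger fall, with library totals only (-2.84, edgeR adjusted p 0.0026). The fit with mouse as a block used only the mice of the 4 deeper end-point libraries.

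**Figure D2:**
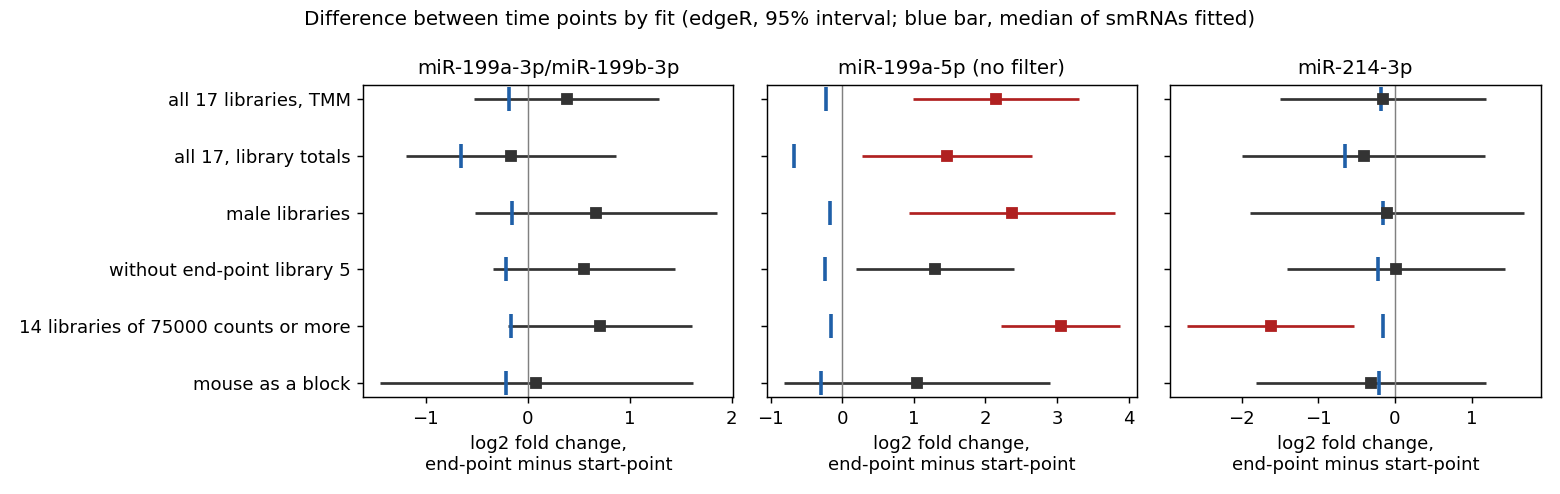
Log2 fold change from start-point to end-point (horizontal axes) for each of the 3 rows under 6 fits; squares with bars are edgeR estimates with 95% intervals, red where the adjusted p was under 0.05, and blue marks are the median of all smRNAs in that fit. The interval of miR-199a-5p excludes 0 in 5 of the 6 fits and that of miR-214-3p in 1, the fit of 14 libraries.

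The ratio of 2 rows within a library does not depend on scaling, since both are divided by the same total. In start-point libraries the 3p row held 50.0 to 80.0% of the counts of 3p and miR-199a-5p combined, with a mean of 69.1 ± 9.33% (SD, n = 10). In 0 of these 10 libraries did the 5p arm outnumber the 3p row. At the end-point the 3p share was 50.0, 72.2, 92.3, 58.3, 4.05, 21.7 and 83.3% in libraries 1 to 7. Libraries 5 and 6 were the 2 with more 5p than 3p, with 95% Wilson intervals of 1.39 to 11.3% and 13.1 to 33.6%. The interval of the lowest start-point library, 25.4 to 74.6% from 12 counts, overlaps that of library 6 and not that of library 5. The intervals of the other 5 end-point libraries, which rest on 6 to 36 counts, overlap the start-point range. The 3p level was 25.3 CPM in library 5 and 86.1 CPM in library 6, so the shift went with a high 5p arm in both and, in library 5, also with the lowest 3p level of all. Because the 3p row also counts miR-199b-3p, the share is not that of miR-199a alone.

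**Figure D3:**
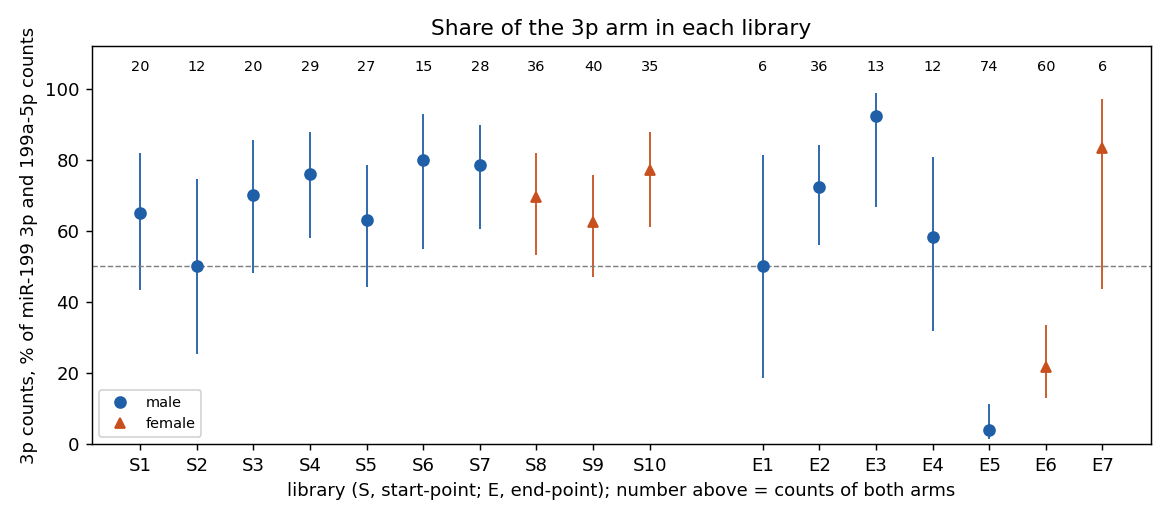
Share of 3p counts among 3p and miR-199a-5p counts (vertical axis, %) in each library, with 95% Wilson intervals and the number of counts above each point. Libraries E5 and E6 lie at 4.05 and 21.7%, under the start-point libraries at 50.0 to 80.0%.

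miR-214-3p and the miR-199a arms did not follow each other across libraries, although Mir214 and Mir199a-2 share the host Dnm3os. The Spearman correlation of log2 CPM over 17 libraries was 0.09 between miR-214-3p and the miR-199 3p row, and -0.57 between miR-214-3p and miR-199a-5p. Between the miR-199 3p row and miR-199a-5p it was 0.03. Within the time points, the pair of miR-214-3p and miR-199a-5p had -0.05 at the start-point and -0.50 at the end-point, and miR-214-3p with the miR-199 3p row had -0.33 and 0.25. These values describe points that share library depth and counting error, and with so few counts a weak correlation carries little. The ratio of miR-214-3p to miR-199 3p counts ran from 0.154 to 3.00 in start-point libraries and from 0 to 3.00 in end-point libraries. End-point libraries 5 and 6, high in miR-199a-5p, held 16.9 and 26.5 CPM of miR-214-3p, and libraries 3 and 7, high in miR-214-3p, held 30.9 and 15.7 CPM of miR-199a-5p. The high values of miR-199a-5p and miR-214-3p thus fell in different end-point libraries. The miR-199 3p row and miR-214-3p had their highest CPM in the same one, library 3.

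Within mice, the direction of change in CPM differed between the rows. miR-214-3p was lower than in the same mouse's start-point library in 6 of 7 end-point libraries, the exception being mouse 3, which went from 101 to 495 CPM. For mouse 11 the step was only from 238 to 235 CPM, and with TMM factors it was a rise, so that 5 of 7 were lower. The miR-199 3p row was lower in 5 of 7, or in 4 of 7 with TMM factors. miR-199a-5p was higher in 4 of 7 on each scale, though not in the same libraries. With TMM factors end-point library 1 turned lower and end-point library 4 turned higher. The 7 end-point libraries come from 6 mice, as both end-point libraries of mouse 1 were set against its single start-point library. The largest steps of miR-199a-5p were those of mouse 7, from 35.0 to 599 CPM, and mouse 9, from 88.1 to 311 CPM. With mouse as a block, miR-214-3p stood at -0.31 on the log2 scale (edgeR adjusted p 0.807) and the miR-199 3p row at 0.085 (edgeR adjusted p 0.95).

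In mean CPM, female libraries were higher than male libraries at the start-point in each row. The miR-199 3p row was at 192.1, 194.6 and 200.1 CPM in the 3 females and at 68.6 to 129 CPM in the 7 males. How many of all smRNAs separated by sex in this way was not counted, so whether the separation is particular to this row is not known. miR-199a-5p was at 57.7 to 115 CPM in females and at 32.2 to 68.6 CPM in males, which overlap. miR-214-3p was at 168, 238 and 382 CPM in females and at 12.9 to 205.7 CPM in males, which overlap. The 3 female start-point libraries also had the highest TMM factors of all 17, at 1.48, 1.67 and 1.92. With these factors the miR-199 3p row in females, at 102 to 136 CPM, lay inside the male range of 53.8 to 168 CPM. At the end-point the 2 females held 86.1 and 78.3 CPM of the miR-199 3p row, inside the male range of 25.3 to 371 CPM.

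Adjusted for time point, the log2 fold change of females against males with TMM factors was -0.27 ± 0.50 (SE) for the miR-199 3p row, and it was 0.36 with library totals only. For miR-199a-5p it was 0.06 ± 0.61 and for miR-214-3p 0.75 ± 0.68. Of the 3 rows 0 were called, with edgeR adjusted p of 0.893, 0.978 and 0.732, and among all 1401 smRNAs 0 (0%) passed, while 136 had an unadjusted p under 0.05. The DESeq2 Wald test called 35 smRNAs but gave no adjusted p for the 3 rows. For the interaction of sex and time point 0 of 1462 smRNAs (0%) passed in edgeR, while 93 had an unadjusted p under 0.05. The DESeq2 Wald test called 2 there, neither of them one of these rows. Interaction log2 differences of the 3 rows were -0.93, -0.25 and -0.24, with standard errors of 1.02, 1.29 and 1.47, so only very large sex differences in the change could have been seen.

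Other miRNAs known from fibroblasts, smooth muscle and related mesenchymal cells formed a list of 16, of which 12 were in the table and 11 tested. The median log2 fold change of the 11 was 0.68, against -0.18 over all smRNAs tested, and 3 were called higher and 1 lower at the end-point by edgeR. These 4 of 11 lie near the background of 33.7% called among 1270 smRNAs, so the count says nothing particular about the list. The 3 that rose were miR-145a-3p (log2 fold change 5.90, edgeR adjusted p 8.08e-07), miR-143-3p (2.87, 0.000585) and miR-127-3p (1.66, 0.0209). miR-143 and miR-145a are known from smooth muscle, and miR-127 comes from an imprinted gene cluster. The 1 that fell was miR-152-3p (-1.96, 0.026), a regulator of DNA methyltransferase 1. The other arm of miR-145a, miR-145a-5p, was not called at -0.26 with an edgeR adjusted p of 0.761. The summed level of the list ran from 2529 to 8008 CPM at the start-point and from 3003 to 23944 CPM at the end-point. The 2 libraries highest in miR-199a-5p held 6440.2 and 12169 CPM of it. The end-point libraries highest in miR-214-3p, libraries 3 and 7, held the 2 highest sums of all, 13304 and 23944 CPM. Both have totals under 75000 counts. Start-point libraries 2, 9 and 10, also among the 5 highest in miR-214-3p, held 4090, 4763 and 5262 CPM. The other 12 libraries held 2529 to 12169 CPM. The part of other mesenchymal RNA in these levels was not tested.

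Markers of other cells differed between the same libraries. The 5 libraries highest in miR-214-3p, at 205.7 to 495 CPM, held 2970.3 to 5609.7 CPM of 8 epithelial miRNAs summed, and the other 12 libraries held 3226 to 38181 CPM. The 5 are start-point libraries 2, 9 and 10 and end-point libraries 3 and 7, and the part of epithelial RNA in their miR-214-3p level was not tested. Against the same background of 33.7% called, 3 of the 8 epithelial miRNAs tested were called higher and 3 lower by edgeR, with a median log2 fold change of -0.66. The higher ones were miR-200b-3p, miR-141-3p and miR-215-5p, and the lower ones miR-192-5p, miR-194-5p and miR-375-3p. Of 4 leukocyte miRNAs tested, too few to set against that background, 1 was called higher (miR-223-3p) and 1 lower (miR-342-3p). The summed leukocyte list ran from 911 to 3690.1 CPM at the start-point and from 457 to 3234 CPM at the end-point. The red cell list had 1 tested member, miR-486a-5p, which was not called. The striated muscle list also had 1, miR-133a-3p, which fell (log2 fold change -1.94, edgeR adjusted p 0.0446). Of 4 fibrosis-linked miRNAs 2 were tested, with 0 called where 33.7% were overall: miR-21a-5p at -0.71 and miR-29c-3p at 1.23, with edgeR adjusted p of 0.217 and 0.258. The endothelial miR-126a arms were not analysed here.

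miR-761, which shares the seed of miR-214-3p but comes from a gene overlapping an exon of Nrd1 on chromosome 4, was at 80.0 to 309 CPM at the start-point and at 0 to 219 CPM at the end-point. The 2 miRNAs match at 13 of 22 positions, all 7 seed positions among them. miR-761 had 0 counts in end-point library 3, where miR-214-3p was at its highest, and a count of 0 allows up to 92.8 CPM there. Its log2 fold change was 0.42 ± 0.53 (SE), with no call (edgeR adjusted p 0.565).

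The smRNAs whose levels across the 17 libraries were most like those of miR-214-3p were miR-210-5p, miR-6928-3p and miR-6927-3p, with Spearman correlations of log2 CPM of 0.88, 0.84 and 0.83 among 1268 compared. Within the 10 start-point libraries these were 0.81, 0.64 and 0.78, and within the 7 end-point libraries 0.75, 1.00 and 0.64. Likeness to the miR-199 3p row was lower, with 0.71 for miR-5099, 0.66 for let-7j and 0.64 for miR-2136. Within the start-point these were 0.79, 0.14 and 0.66, and within the end-point 0.64, 0.96 and 0.50. For miR-199a-5p, looked up after its values were seen and among 1484 smRNAs, the highest were miR-873b at 0.90, miR-3070-3p at 0.83 and miR-7090-5p at 0.77. These are the highest of many correlations and share library depth and composition, so they are a description only. Of the first 6 of these smRNAs edgeR called 0 between time points, and miR-6927-3p and miR-210-5p stood at -1.41 and 0.16 on the log2 scale with adjusted p of 0.083 and 0.872. miR-3070-3p and miR-7090-5p, like miR-199a-5p, were called higher at the end-point by edgeR, at 2.50 and 1.63 on the log2 scale with adjusted p of 0.00879 and 0.031. They were picked by likeness over both time points, so the shared direction is partly built into the choice. Their correlations with miR-199a-5p were 0.62 and 0.21 within the start-point and 0.54 and 0.96 within the end-point.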

How the data were processed

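The authors deposited a table of raw counts per smRNA and library, per the file header and the values, which are whole numbers with no normalization. Per the labels' protocols, RNA from precipitated fecal exosomes was made into libraries with the QIAseq miRNA kit, which carries molecular identifiers. Per the submitters' processing notes, bcl2fastq was run and the build was GRCm38. The aligner, the counting tool, the use of the identifiers and the assignment of reads matching several miRNAs are not given in the sources used here, so PCR copies may add to the spread.

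Groups and mouse identities came from the labels. p-values set a difference against the spread between these libraries. Fits without mouse as a block took all libraries as independent, those of the same mouse included. Differences were tested on the whole table in R 4.3.3 with edgeR 4.0.16 (quasi-likelihood F-test, glmQLFit with legacy = FALSE and glmQLFTest), using TMM factors, filterByExpr and Benjamini-Hochberg adjustment over all smRNAs tested, called at an adjusted p under 0.05. Standard errors were the log2 fold change divided by the square root of F. Because filterByExpr left miR-199a-5p out of the time point test, that row was read from fits without a filter unless stated, a choice made after seeing the data. CPM are counts divided by the library total and scaled to 1000000; log2 CPM for correlations had TMM scaling and 2 as the prior count. Alternatives used DESeq2 1.42.0 and limma 3.58.1. Only the main fits of time point, sex and their interaction were run on simulated counts, which held no mouse pairing. The fits without a filter, with mouse as a block or on the deeper libraries were not checked in this way.

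Named smRNAs were all members, those sharing a seed, the 3 most alike in Spearman correlation to the most abundant member of miR-199 and of miR-214, and list members past the threshold. The members, the lists and the 75000-count threshold were chosen with earlier results of these data known. Libraries of the same mouse came from 6 mice. Over 7 pairs of libraries, their deviations from the group means had a mean correlation of 0.094, from -0.07 to 0.26.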

Additional observations from a re-analysis of the deposited data

Results flagged for a closer look

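A library stood apart from its group in 3 of 14 sets of values examined, by a threshold meant for about 1 in 20 by chance. The sets share libraries, as the end-point males are part of the end-point group. The 3 of 14 therefore cannot be set against that rate. In end-point library 3 the miR-199 3p row was at 371 CPM, far above the other 6 end-point libraries in CPM. With TMM factors it was at 252 CPM, and end-point library 2 was highest at 384 CPM. Among the 5 male end-point libraries, library 5 stood apart for miR-199a-5p at 599 CPM, and library 3 for miR-214-3p at 495 CPM. Library 3 was the shallowest of all, at 32320 counts, and its values rest on 12 and 16 counts. The role of its depth was not tested.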

How the results depend on the processing

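The count of called member rows, 0 in the main test of time points, was 1 without a filter, 2 without the libraries under 75000 counts, and, added after seeing the data for the latter libraries, 2 with library totals only, 1 in limma-voom and 1 without end-point library 5. It was 0 throughout when single libraries were left out with the filter in place, and 0 with mouse as a replicate block. These filtered fits did not test miR-199a-5p. Without the filter, edgeR called miR-199a-5p in 16 of 17 fits with a single library left out. The exception was the fit without end-point library 5. The log2 fold change of the miR-199 3p row changed sign with library totals only (-0.17), in limma-voom (-0.0098), with the replicate block and end-point library 2 left out (-0.36), and without shallow libraries on library totals (-0.59), and ran from -0.16 to 0.62 over single left-out libraries. Its highest value was 1.09, without shallow libraries and end-point library 5. That of miR-214-3p became 0.018 when the end-point libraries of mouse 1 were summed, and ran from -0.90 to 0.057 over left-out libraries. Its lowest value was -2.84, without shallow libraries on library totals. miR-199a-5p stayed higher in all fits, from 0.74 (replicate block without end-point library 2, edgeR adjusted p 0.621) to 3.05, and from 1.29 to 2.48 over single left-out libraries. With end-point library 2 taken as mouse 2, the replicate block gave 0.94 for miR-199a-5p and -0.81 for miR-214-3p, both without a call. For sex, 0 member rows were called by edgeR in the fits run, left-out libraries included. The sign changed for the miR-199 3p row with library totals (0.36), ranging from -0.40 to 0.026 over left-out libraries, and for miR-199a-5p in the DESeq2 Wald test (-0.0079), ranging from -0.43 to 0.46. Interaction estimates ranged from -4.09 to 1.33 for miR-199a-5p and from -1.67 to 1.62 for miR-214-3p, with 0 calls. With mouse as a block, 95 smRNAs were called in place of 428, and 65 with end-point library 2 left out. Calls over all smRNAs were 51.6% higher ones with TMM factors and 31.9% with library totals. The causes were not tested. The intervals around the main estimates limit what these rows can show.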
